A study of Mus musculus with 6 samples.

Results

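The 49 genes described here encode the machinery that copies DNA and packs and mends it behind the fork: the sliding clamp and its loader, polymerases and primase, the GINS complex and CDC45, flap processing and single-strand binding proteins, enzymes of nucleotide supply, chromatin assembly factors, repair and fork protection proteins, and E2F transcription factors. They were chosen by gene symbol, with earlier results of these data known, so counts over the set are a description. All 49 were among the 23337 genes of the deposited table. All 49 were also among the 13671 genes tested, whose normalized counts averaged 10 or more. Ear skin tumours of mice, labelled as basal cell carcinoma of the epidermis, gave the RNA: 3 libraries from knockout tumours (R26-SmoM2/+ with Yapfl/fl and K14CreER) and 3 from wild-type tumours (R26-SmoM2/+ with K14CreER). Both groups thus carried SmoM2, a constitutively active Smoothened that switches on Hedgehog signalling, and an inducible Cre under the Krt14 promoter, which acts in basal keratinocytes and the tumour cells derived from them. Tamoxifen was given at 4 weeks of age and the stage label gives 6 weeks after it, while the growth protocol allows for a later time as well. No source used here says whether a library is 1 animal or a pool. The p-values therefore measure how far these particular libraries spread, which may be technical. The comparison asks which transcripts depend on Yap, whose product YAP is a transcriptional co-activator that works with TEAD factors.

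In each S phase the MCM helicase, CDC45 and GINS unwind DNA, primase and polymerase alpha lay down primers, and polymerases delta and epsilon extend them while held to the template by PCNA, a ring that the RFC complex loads. FEN1 and LIG1 finish the lagging strand, ribonucleotide reductase and thymidylate synthase supply the nucleotides, and CAF-1, UHRF1 and DNMT1 restore nucleosomes and DNA methylation. Most of these genes are known targets of E2F factors and are transcribed around the entry into S phase, so in proliferating epidermis and its tumours their transcripts are commonly read as a sign of cycling cells. In bulk RNA, fewer cells in S phase and less of each transcript per cell cannot be told apart.

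Yap1 had 591, 773 and 1764 normalized counts in knockout libraries 1 to 3, against 5765, 6004 and 5573 in wild-type libraries 1 to 3, so knockout library 3 kept the most. A normalized count is a read count divided by one size factor per library, and the recovered reads ran from 15405490 to 25260431 per library. Replicates 1 and 2 of each group carry label codes that begin with DM22 and replicate 3 of each group one that begins with DM24, and what the codes mark was not given. The DM24 libraries had 58654 (knockout) and 59594 (wild-type) normalized counts of Xist, which is made from the inactive X chromosome, and 0 reads of the Y-linked gene Ddx3y, whereas the DM22 libraries had 8.62 to 15.1 of Xist and 3202 to 3426 of Ddx3y. The DM24 libraries also had the fewest reads, 15405490 to 15572640. Sex, depth and the codes cannot be told apart. With genotype in the model, limma called 923 genes between the DM24 and DM22 libraries. The tissue label was checked with markers: Krt5, a basal keratinocyte keratin, had the most reads of any gene in each library, and the summed level of 13 basal keratinocyte and tumour markers was 707723 to 748376 normalized counts in knockout libraries and 633693 to 874279 in wild-type libraries. Summed markers of the other cell types overlapped between the groups. They were 29378 to 106317 in knockout and 31088 to 47446 in wild-type libraries for 7 suprabasal keratinocyte markers, with knockout library 3 highest, and 1990 to 7619 in knockout and 3406 to 10402 in wild-type libraries for 7 fibroblast markers. For 9 immune cell markers they were 542 to 915 in knockout and 391 to 713 in wild-type libraries, for 6 endothelial markers (Emcn at 0 reads in each library) 115 to 128 in knockout and 60.3 to 133 in wild-type libraries. For 5 melanocyte markers they were 162 to 225 in knockout and 124 to 317 in wild-type libraries, and for 5 muscle markers 17.3 to 20.5 in knockout and 15.6 to 50.4 in wild-type libraries. Most of the fibroblast sum was Dcn, which like Thy1 was lowest in library 3 of both groups. Col1a1, Col1a2 and Col3a1 were instead highest in library 3 of both groups. Most of the immune sum was Cd74, H2-Ab1 and Cd68. Ptprc, Cd3e, Cd3g, Cd207, Lyz2 and Itgam did not exceed 7.59 normalized counts in any library. The part of these cell types in the results was not tested.

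Transcripts of the replication machinery were slightly lower in the knockout tumours across nearly the whole set. Of the 49 genes, 48 had a log2 difference below 0, E2f7 being the exception, against 51% of all genes tested. The median log2 difference, knockout minus wild type on the log2(normalized count + 1) scale, was -0.27, with a range of -0.47 to 0.02, while the median over all genes tested was near 0 (-0.0034). For 33 of the 49 every knockout library lay below every wild-type library, against 5.87% of all genes in that direction, and for 0 of the 49 every knockout library lay above (5.08% of all genes). The summed level of the 49 was 55591 to 57780 normalized counts in knockout libraries and 66238 to 68686 in wild-type libraries, without overlap. Scaling each library to its total reads in place of the size factors left 47 below 0, a median of -0.22 and 23 without overlap, all of them lower (3.39% of all genes in that direction).

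**Figure D1:**
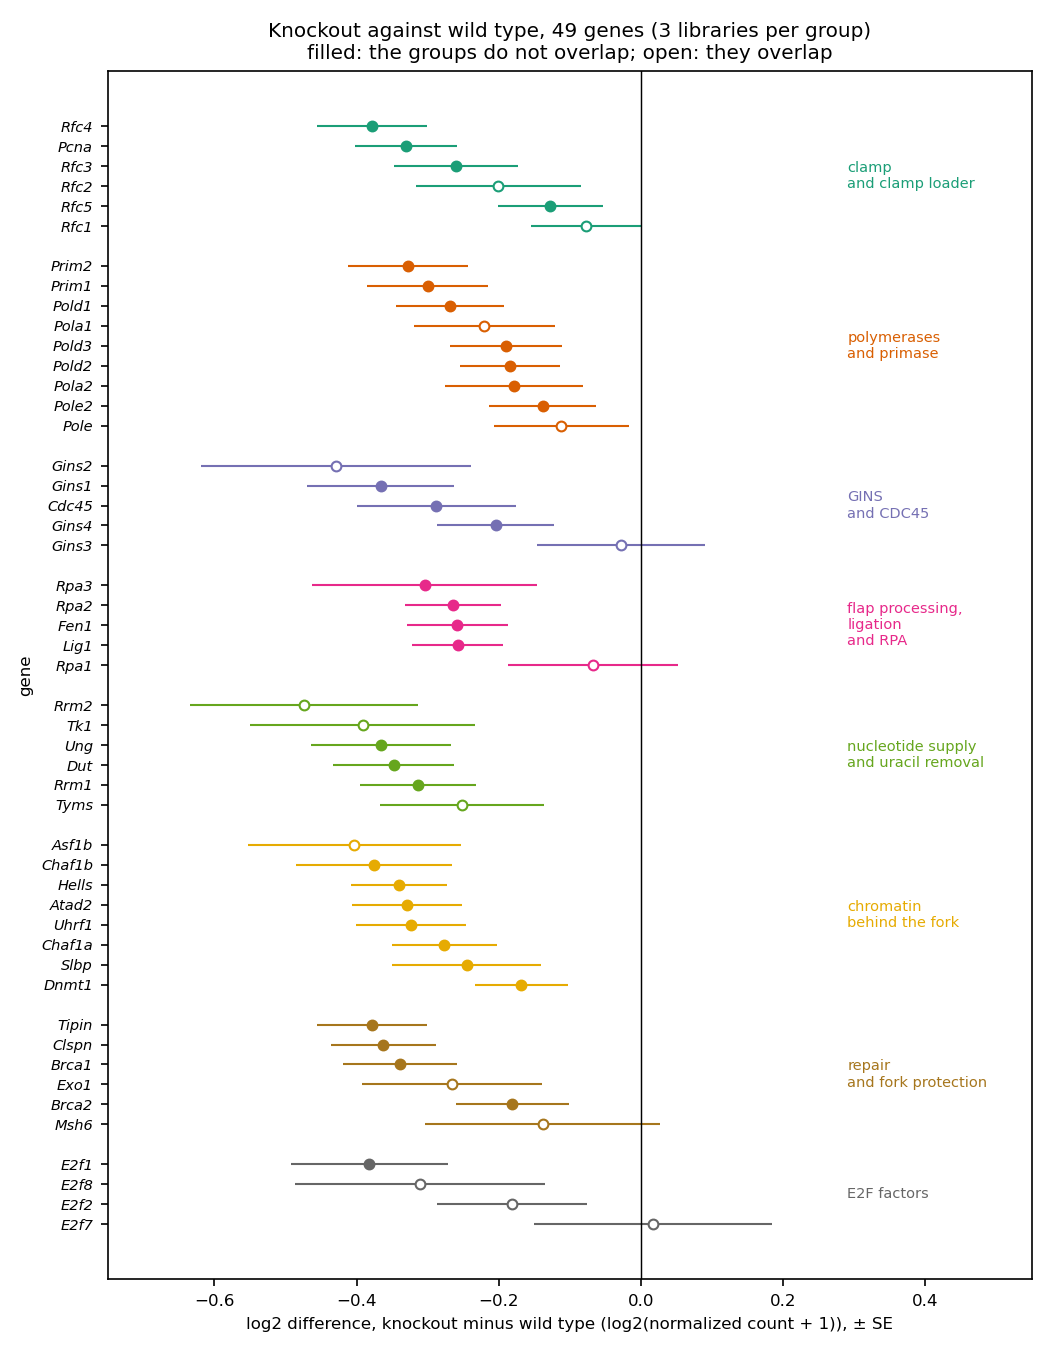
Log2 difference of each of the 49 genes, knockout minus wild type on the log2(normalized count + 1) scale (x axis), with its standard error as a bar; genes are grouped by role (y axis) and filled points mark genes whose groups do not overlap. All points except E2f7 lie below 0, and 33 are filled.

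No single gene passed the test across the whole table. Limma with Benjamini-Hochberg adjustment called 0 of the 49, and 0% of all genes, at an adjusted p under 0.05. At an unadjusted p under 0.05 limma had 29 of the 49, all lower, against 5.55% of all genes. EdgeR called 0 (0% of all genes), with 29 of the 49 at an unadjusted p under 0.05, against 5.63% of all genes. The targeted gene Yap1 itself (log2 difference -2.63) was called by neither. Its adjusted p was 0.517 in limma and 0.657 in edgeR, against 1.4e-07 in DESeq2 without a term. A lack of calls by limma or edgeR therefore does not show that a gene was unchanged. DESeq2 on the recovered reads called 4 of the 49, all lower, against 0.49% of all genes: Pcna, Hells, Tipin and Clspn. With the code series as a term DESeq2 called 11, against 2.22% of all genes, adding Rfc4, Rrm1, Rrm2, Dut, Uhrf1, Atad2 and Brca1. With the replicate number as a block it called 1, Rrm2, against 1.24% of all genes. These calls were unstable: DESeq2 called 0 of the 49 in a fit to all genes with a read, and 1, 0 and 11 without knockout libraries 1, 2 and 3 and 0, 2 and 4 without wild-type libraries 1, 2 and 3. The matching shares of all genes were 0.302% for the fit to all genes with a read, 0.388%, 0.19% and 1.7% without the knockout libraries and 0.168%, 1.63% and 1.72% without the wild-type libraries. None of the 4 was called in more than 2 of those 6 fits. Limma with array weights, which give each library its own weight, called 34 of the 49, all lower, against 11.9% of all genes. The weights were 4.91 for knockout library 2 and 3.69 for wild-type library 1, against 0.288 to 1.14 for the others. That fit therefore rested mostly on 1 library of each group.

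The direction was also read within the same-numbered libraries of the 2 groups, which are the same 6 libraries. In pair 1, 47 of the 49 were lower in the knockout library, against 50.1% of all genes. In pair 2, 48 were lower, against 52.1% of all genes, and in pair 3, 46 were lower, against 50.4% of all genes. The median log2 differences of the 49 were -0.26, -0.32 and -0.19 in pairs 1 to 3. Of the 49, 44 were lower in each of the 3 pairs, against 17.3% of all genes. For the 33 genes with every knockout library below every wild-type library, a lower value in each pair was fixed in advance. Pair 3, the DM24 pair, had the smallest median and holds the knockout library with the most Yap1 reads. Whether the genotype effect differs between the code series could not be settled, because DM24 holds 1 knockout and 1 wild-type library, which have to be assumed to vary like the DM22 libraries. In that interaction fit limma called 0 of the 49 (0% of all genes), with 0 of the 49 and 748 of all genes at an unadjusted p under 0.05. In the 4 DM22 libraries alone all 49 lay below 0 (median log2 difference -0.27) and 45 did not overlap, all lower, against 23.8% of all genes in that direction with 2 libraries against 2. For the 33 genes without overlap among all 6 libraries, both of these outcomes were fixed in advance. DESeq2 called 2 of the 49 in the DM22 libraries, Rrm1 and Atad2, against 1.96% of all genes.

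**Figure D2:**
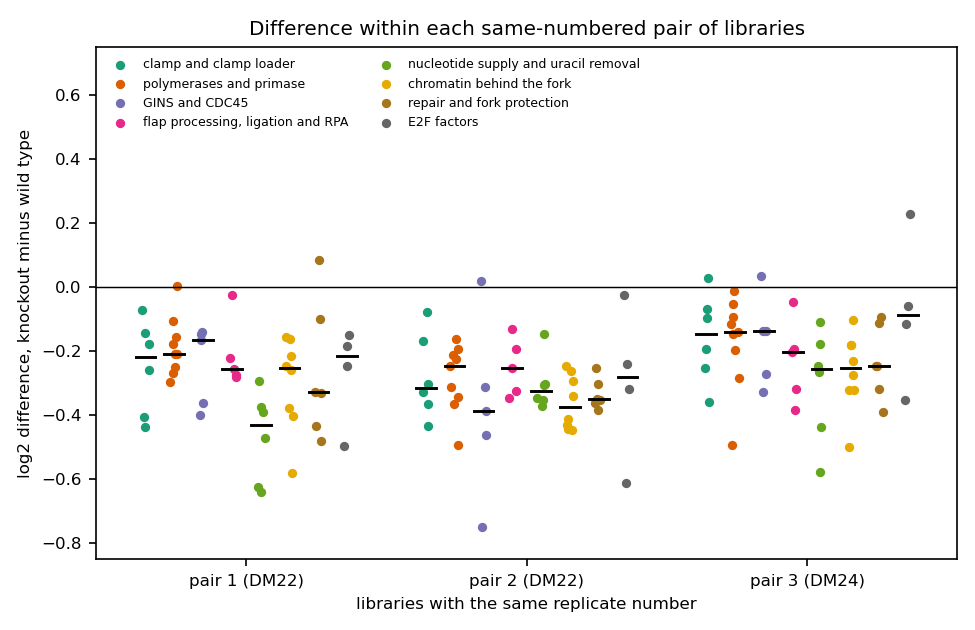
Log2 difference, knockout minus wild type (y axis), within each pair of libraries that share a replicate number (x axis); each point is a gene, coloured by role, and black bars are the medians of each role. Most points lie below 0 in each pair, and for each role except chromatin the median lies nearest 0 in the DM24 pair.

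The promoters of the set were read for E2F letters, because E2F factors are the known activators of these genes. Of the 49, 40 had a promoter in the RefSeq-derived table (build GRCm38.p6, 250 bases before to 50 after a start), with 48 starts among them. The letters TTTCCCGC, TTTCGCGC, TTTGCCGC or TTTGGCGC on either strand were present for 15 of the 40 genes (37.5%), against 4.64% of the tested genes with a promoter there and 2.6% of all genes. CCAAT, the letters of NF-Y sites, was present for 24 of the 40, against 42.9% of tested genes, and TTTGAA, the letters of CHR elements, for 8, against 14% of tested genes. TGANTCA, the letters of AP-1 sites, was present for 1 of the 40, against 6.53% of tested genes, and GGAATG, those of TEAD sites, for 4, against 14.9%. No E2F match overlapped another of these motifs. The member promoters were also richer in G and C, with a median of 63% against 60.7% for tested genes. A match is a description of letters and not a shown binding site.

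The stretches below, each 60 bases upstream of a start and read 5′ to 3′ on the gene's strand, show the E2F letters in capitals. Hells and Uhrf1 (at its second listed start) are shown because DESeq2 called them in at least 1 design, Rfc3 and Pola1 for the clamp loader and primer synthesis, and Gins3 and E2f7 because they carry the letters and had the differences nearest 0. They lie at chr19:38930902-38930961 (plus strand), chr17:56304102-56304161 (plus), chr5:151651209-151651268 (minus), chrX:93632260-93632319 (minus), chr8:95633492-95633551 (plus) and chr10:110745215-110745274 (plus), GRCm38.p6.
Hells: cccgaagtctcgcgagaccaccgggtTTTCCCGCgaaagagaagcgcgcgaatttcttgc
Uhrf1: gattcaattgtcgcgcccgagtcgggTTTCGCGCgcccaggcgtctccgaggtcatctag
Rfc3: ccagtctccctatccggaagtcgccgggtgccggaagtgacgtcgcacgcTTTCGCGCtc
Pola1: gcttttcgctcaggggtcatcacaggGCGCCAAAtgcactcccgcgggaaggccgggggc
Gins3: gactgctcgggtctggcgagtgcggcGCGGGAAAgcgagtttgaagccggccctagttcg
E2f7: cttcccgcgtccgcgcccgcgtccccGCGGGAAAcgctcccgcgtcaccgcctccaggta
Matches were thus present in genes with log2 differences of -0.34 (Hells), -0.32 (Uhrf1), -0.26 (Rfc3) and -0.22 (Pola1), and also in Gins3 (-0.03) and E2f7 (0.02). Among members with a listed promoter, Rrm2 (-0.47), Asf1b (-0.40), Tk1 (-0.39), E2f1, Rfc4, Chaf1b (each -0.38) and Ung (-0.37) had the lowest differences. These genes had no match. Clspn (-0.36) came next and had a match. DESeq2 called Pcna, Rfc4, Rrm1, Rrm2, Dut and Brca1, without a match, and Hells, Uhrf1 and Clspn, with a match, in at least 1 design. Rfc1 (-0.08) and Rpa1 (-0.07) also had no match. Whether a match goes with the size of the difference was not tested.

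The clamp Pcna and 3 of the 5 clamp loader genes had every knockout library below every wild-type library, against 5.87% of all genes. Pcna (chromosome 2, 132249162 to 132253314, minus strand, GRCm38), the ring that tethers polymerases to DNA, had 1744, 1950 and 1885 normalized counts in knockout libraries 1 to 3, against 2359, 2404 and 2249 in wild-type libraries 1 to 3. The groups did not overlap, and the knockout mean was 79.6% of the wild-type mean, a log2 difference of -0.33 ± 0.07 (SE; limma adjusted p = 0.667, DESeq2 adjusted p = 0.0381, and 0.207 with the block). Rfc4, a small subunit of the loader, had 459, 456 and 478 in knockout libraries and 609, 588 and 614 in wild-type libraries. Its libraries within a group lay close together, and its log2 difference was -0.38 ± 0.08 (SE; DESeq2 adjusted p = 0.0543, and 0.0354 with the code series). Exons of Rfc4 and the opposite-strand gene Eif4a2 overlap by 165 bases, and reads there cannot be told apart without strand. Rfc1, the large subunit, was nearest 0, with 2198, 2324 and 2210 in knockout libraries and 2488, 2455 and 2168 in wild-type libraries. Its groups overlapped through wild-type library 3, the lowest of the 6, and the log2 difference was -0.08 ± 0.08 (SE), or -0.14 without that library. Rfc3 (-0.26), Rfc2 (-0.20) and Rfc5 (-0.13) lay between, with only Rfc2 overlapping. Rfc2 was -0.11 without wild-type library 2. Exons of Rfc2 and Rfc5 overlap the opposite-strand genes Lat2 and Wsb2. Per kilobase of the principal transcript the mean levels of the loader subunits were 582 in knockout and 697 in wild type for Rfc3, 472 and 499 for Rfc1, 378 and 492 for Rfc4, 296 and 341 for Rfc2, and 252 and 275 for Rfc5.

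The 9 polymerase and primase genes all lay below 0 (median log2 difference -0.19), against 51% of all genes. For 7 every knockout library lay below every wild-type library, against 5.87% of all genes. The primase subunits had the largest differences. Prim2, the regulatory subunit, had 641, 666 and 588 normalized counts in knockout libraries 1 to 3 and 788, 762 and 828 in wild-type libraries 1 to 3. Every knockout library lay below, and the log2 difference was -0.33 ± 0.08 (SE; limma adjusted p = 0.722, DESeq2 adjusted p = 0.215). Prim1, the catalytic subunit, differed by -0.30 on the log2 scale. Pole, the catalytic subunit of the leading-strand polymerase epsilon, had 2111, 1742 and 1773 in knockout libraries and 2105, 2034 and 1922 in wild-type libraries. Knockout library 1 was the highest of the 6 for Pole, the groups overlapped, and the log2 difference was -0.11 ± 0.10 (SE). The others were Pold1 (-0.27), Pola1 (-0.22), Pold3 (-0.19), Pold2 (-0.18), Pola2 (-0.18) and Pole2 (-0.14), of which only Pola1 overlapped. Pola1 was -0.14 without wild-type library 2, Pola2 was -0.09 without knockout library 2, and Pole was -0.20 without knockout library 1. DESeq2 called 0 of these 9 without a term, with the block or with the series.

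Within the GINS complex, which joins CDC45 and the MCM ring to form the replicative helicase, the 4 subunits differed unequally. Gins2 had 608, 493 and 492 normalized counts in knockout libraries 1 to 3 and 802, 830 and 541 in wild-type libraries 1 to 3. The groups overlapped because wild-type library 3 was low. The log2 difference was -0.43 ± 0.19 (SE; limma adjusted p = 0.909, DESeq2 adjusted p = 0.741), and 2758 bases of Gins2 exons overlap exons of the opposite-strand gene Gse1. Gins3 had 227, 229 and 220 in knockout libraries and 250, 226 and 215 in wild-type libraries, a log2 difference of -0.03 ± 0.12 (SE) with overlapping groups, which turned to 0.02 when libraries were scaled to total reads. Gins1 (-0.37), Cdc45 (-0.29) and Gins4 (-0.20) did not overlap between the groups. Whether the subunits differ from each other in their response was not tested. Per kilobase of principal transcript, mean levels were 449 in knockout and 516 in wild type for Gins4, 248 and 320 for Gins1, 136 and 186 for Gins2, and 89.4 and 91.3 for Gins3. The level of Gins2 depends on how reads in the 2758 shared bases, of 3900 in its transcript, were counted.

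For lagging-strand processing and single-strand binding, Fen1, Lig1, Rpa2 and Rpa3 did not overlap between the groups while Rpa1 did. Every knockout library lay below every wild-type library for 5.87% of all genes. The flap nuclease gene Fen1 and the ligase gene Lig1 each had a log2 difference of -0.26. Lig1 came nearest to a DESeq2 call of the 5 (adjusted p = 0.0926). Rpa3, the smallest subunit of the RPA trimer, had 206, 210 and 249 normalized counts in knockout libraries 1 to 3 and 250, 251 and 325 in wild-type libraries 1 to 3. Its highest knockout and lowest wild-type values nearly touched, and the log2 difference was -0.30 ± 0.16 (SE), or -0.18 without wild-type library 3. Rpa1, the large subunit, had 2903, 2794 and 2375 in knockout libraries and 2953, 3059 and 2452 in wild-type libraries. Library 3 was the lowest in both groups, the log2 difference was -0.07 ± 0.12 (SE), and it turned to 0.02 without knockout library 3. Rpa1 was the single gene of the 49 that limma called between the code series (DM24 minus DM22 -0.28, adjusted p = 0.0463), against 6.75% of all genes.

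The 6 genes of nucleotide supply and uracil removal, called nucleotide supply below, all lay below 0 (median log2 difference -0.36), against 51% of all genes. Rrm2, the regulated small subunit of ribonucleotide reductase, had 1498, 1496 and 1954 normalized counts in knockout libraries 1 to 3 and 2337, 1903 and 2643 in wild-type libraries 1 to 3. Knockout library 3 lay above wild-type library 2, so the groups overlapped, and library 3 was the highest in both groups. The log2 difference was -0.47 ± 0.16 (SE), the lowest of the 49, with -0.64, -0.35 and -0.44 in pairs 1 to 3. The adjusted p of Rrm2 was 0.826 in limma and 0.416 in DESeq2 without a term. It was 0.0208 once DESeq2 held the replicate number and 0.00324 once it held the code series. Rrm1, the large subunit, had 3755, 3651 and 4289 in knockout libraries and 4926, 4727 and 4854 in wild-type libraries, without overlap, a log2 difference of -0.31 ± 0.08 (SE; DESeq2 adjusted p = 0.161, and 0.0168 with the code series). Dut, which removes dUTP, had 799, 801 and 894 in knockout libraries and 1108, 990 and 1076 in wild-type libraries, without overlap (-0.35 ± 0.09, SE; DESeq2 adjusted p = 0.158, and 0.0486 with the code series). Ung, which excises uracil from DNA, differed by -0.37 without overlap, and the salvage kinase gene Tk1 by -0.39 with overlap between the groups. Exons of Tk1, Msh6 and E2f7 overlap those of opposite-strand genes by 83, 34 and 86 bases. Thymidylate synthase, Tyms, had the smallest difference of the 6, with 732, 665 and 870 in knockout libraries and 898, 850 and 938 in wild-type libraries, overlapping through knockout library 3 (-0.25 ± 0.12, SE, or -0.16 without knockout library 2). The pseudogene Tyms-ps is listed separately in the table, and reads could have been split between the copies.

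**Figure D3:**
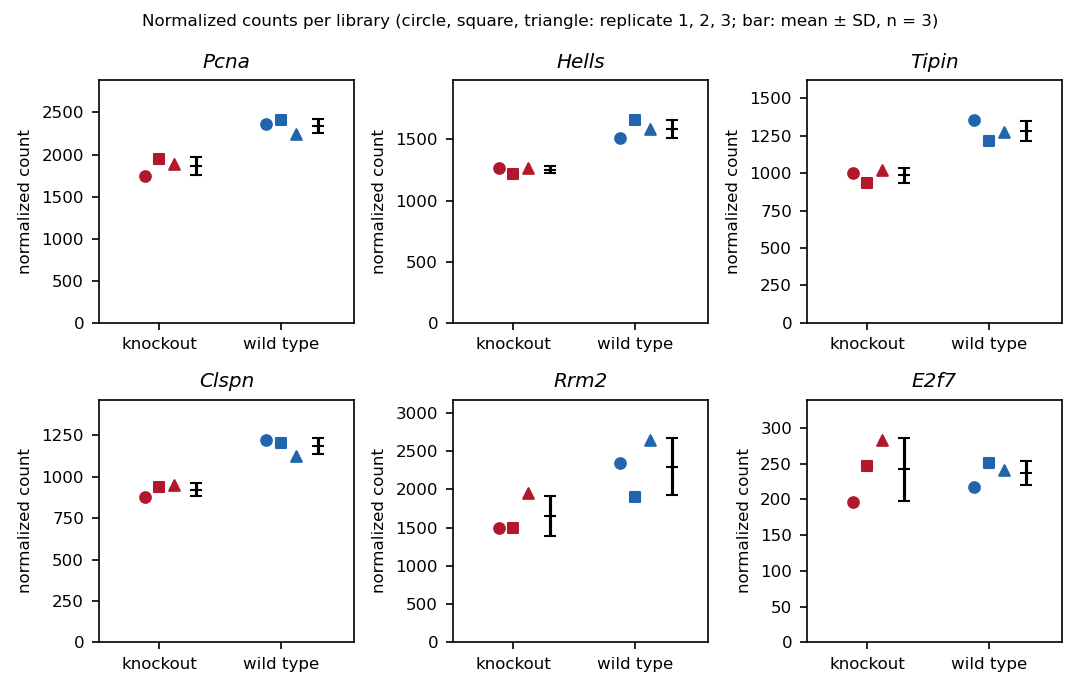
Normalized counts (y axis, from 0) of 6 genes in each knockout and wild-type library (x axis); circles, squares and triangles are replicates 1, 2 and 3, and the black bar is the mean ± SD (n = 3). Pcna, Hells, Tipin and Clspn do not overlap between the groups, while Rrm2 and E2f7 do.

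Of the 8 genes that rebuild chromatin behind the fork, all had log2 differences below 0 (51% of all genes), with a median of -0.33. For 7 every knockout library lay below every wild-type library, against 5.87% of all genes. Hells, a chromatin remodeller needed for DNA methylation, had 1265, 1217 and 1270 normalized counts in knockout libraries 1 to 3 and 1513, 1654 and 1585 in wild-type libraries 1 to 3. The knockout libraries lay within a narrow range below all wild-type libraries, a log2 difference of -0.34 ± 0.07 (SE; limma adjusted p = 0.667, DESeq2 adjusted p = 0.019, and 0.255 with the block). Uhrf1, which reads hemimethylated DNA and recruits DNMT1, had 2381, 2340 and 2615 in knockout libraries and 3146, 2867 and 3164 in wild-type libraries, without overlap (-0.32 ± 0.08, SE; DESeq2 adjusted p = 0.105, and 0.00897 with the code series). Atad2, a bromodomain ATPase, had 1739, 1795 and 1837 in knockout libraries and 2261, 2418 and 2081 in wild-type libraries, without overlap (-0.33 ± 0.08, SE; DESeq2 adjusted p = 0.0763, and 0.0354 with the code series). The maintenance methyltransferase gene Dnmt1 had 5030, 5025 and 5293 in knockout libraries and 5601, 5960 and 5684 in wild-type libraries. It did not overlap either, but its log2 difference of -0.17 ± 0.06 (SE) was the smallest of the 8. Asf1b, a histone chaperone, had the largest, with 478, 443 and 620 in knockout libraries and 715, 604 and 702 in wild-type libraries, overlapping through knockout library 3 (-0.40 ± 0.15, SE). The CAF-1 subunit genes Chaf1b (-0.38) and Chaf1a (-0.28) and the histone mRNA binding protein gene Slbp (-0.25) did not overlap. Slbp was -0.16 without wild-type library 2, and 2692 bases of Chaf1a exons overlap exons of the opposite-strand gene Ubxn6.

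Among repair and fork protection genes the fork protection partners Tipin and Clspn differed most. Tipin, a partner of Timeless at the fork, had 1001, 931 and 1023 normalized counts in knockout libraries 1 to 3 and 1351, 1214 and 1276 in wild-type libraries 1 to 3, without overlap (-0.38 ± 0.08, SE; DESeq2 adjusted p = 0.034). Clspn, which carries the checkpoint signal from ATR to CHK1, had 876, 938 and 951 in knockout libraries and 1221, 1206 and 1128 in wild-type libraries, without overlap (-0.36 ± 0.07, SE; DESeq2 adjusted p = 0.0294). Both lost the DESeq2 call with the block (adjusted p = 0.152 for Tipin and 0.288 for Clspn). Brca1, a homologous recombination gene, had 704, 736 and 651 in knockout libraries and 883, 908 and 853 in wild-type libraries, without overlap (-0.34 ± 0.08, SE; DESeq2 adjusted p = 0.118, and 0.0376 with the code series). Brca2, also a homologous recombination gene, differed by -0.18 without overlap, and the exonuclease gene Exo1 by -0.27 with overlap. Msh6, a mismatch recognition subunit, had 2048, 1956 and 1468 in knockout libraries and 1931, 2332 and 1740 in wild-type libraries. Its groups overlapped (-0.14 ± 0.17, SE), library 3 was the lowest in both, and the difference turned to 0.01 without knockout library 3.

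The E2F factors were mixed. E2f1, an activator of S phase genes, had 635, 556 and 551 normalized counts in knockout libraries 1 to 3 and 721, 850 and 704 in wild-type libraries 1 to 3, without overlap (-0.38 ± 0.11, SE; limma adjusted p = 0.733, DESeq2 adjusted p = 0.3). E2f2, also an activator, differed by -0.18 and E2f8, a repressor, by -0.31, both with overlap. E2f2 was -0.11 without knockout library 1, and E2f8 was -0.49 without knockout library 3. E2f7, the other repressor, had 196, 246 and 283 in knockout libraries and 218, 251 and 242 in wild-type libraries. Both the lowest and the highest library were knockout ones, and the log2 difference was 0.02 ± 0.17 (SE), which turned to -0.09 in the DM22 libraries alone. DESeq2 called 0 of the 4 without a term, with the block or with the series.

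**Figure D4:**
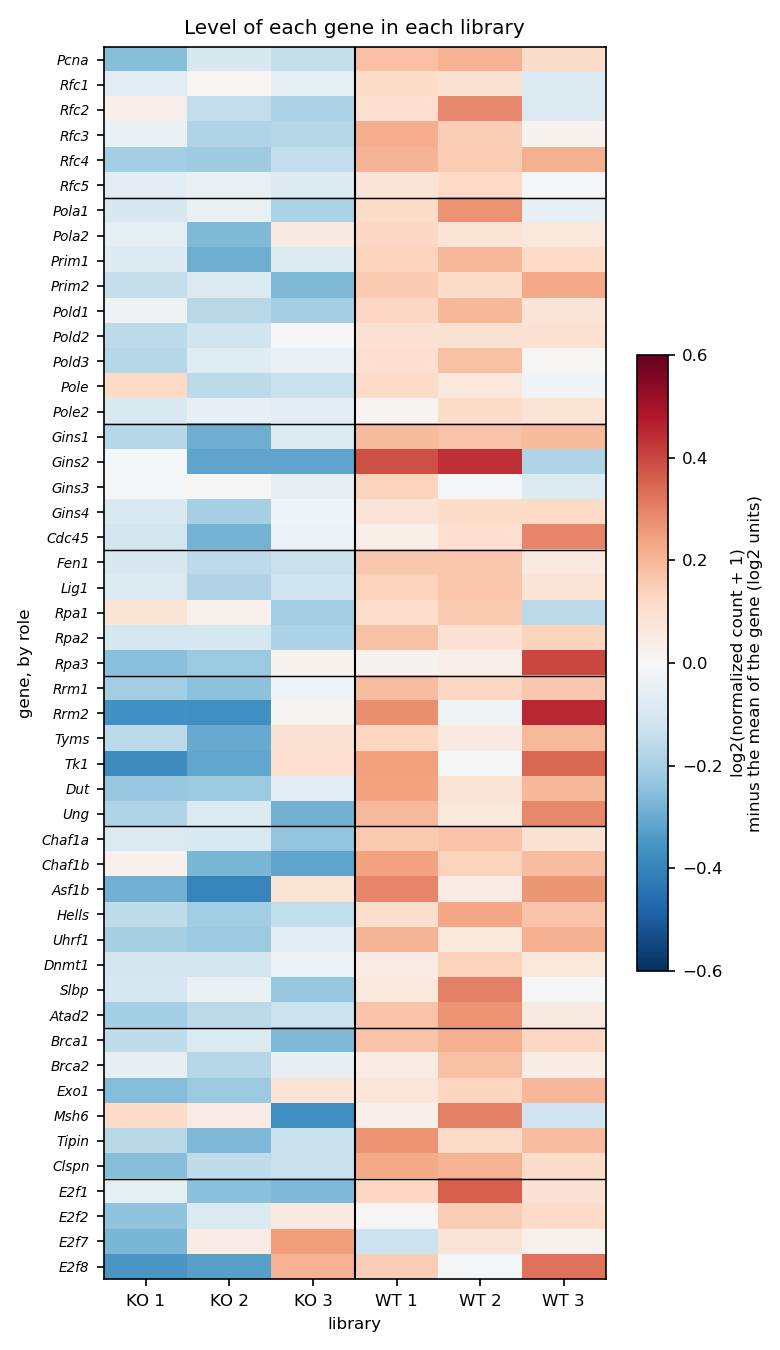
Level of each of the 49 genes (rows, ordered by role) in each knockout and wild-type library (columns), as log2(normalized count + 1) minus the mean of the gene over the 6 libraries, in log2 units. Knockout columns are mostly blue and wild-type columns mostly red, and Rrm2, Tk1, Asf1b and E2f8 are also higher in library 3 than in libraries 1 and 2 of the knockout.

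Most genes of the same pathway outside the set also lay below 0, with list medians between -0.33 and -0.15. The 6 MCM genes had a median log2 difference of -0.33 with all 6 below 0, and DESeq2 called 2 of them (0.49% of all genes). Mcm6 had a DESeq2 adjusted p of 0.00282 and kept its call with the block (0.0126), while Mcm3 had 0.0183 and lost it with the block (0.263). Of 21 other fork and origin firing genes 20 were below 0, with a median of -0.23, and DESeq2 called 2, Wdhd1 and Timeless, against the same 0.49% of all genes. The call of Timeless (DESeq2 adjusted p = 0.0294) was lost with the block (adjusted p = 0.212). Wdhd1, which couples the helicase to polymerase alpha, averaged 1084 ± 107 normalized counts in knockout and 1590 ± 97.2 in wild type (SD, n = 3 each), a log2 difference of -0.56 ± 0.10 (SE; DESeq2 adjusted p = 0.00386, and 0.00145 with the block). Gmnn, the licensing inhibitor, differed by -0.51. Of 11 other nucleotide genes 9 were below 0 with a median of -0.17. Of 23 other homologous and mismatch repair genes 20 were below 0 with a median of -0.23, with Fanca at -0.52, and of 9 checkpoint genes 9 were below 0 with a median of -0.15, led by Chek1 (-0.32). DESeq2 called 0 of those 3 lists without a term, limma called 0 genes of any list, and 759 of all genes had an unadjusted limma p under 0.05. Every knockout library lay below every wild-type library for 5 of 6 MCM and 11 of 21 other fork and origin firing genes. The same held for 4 of 11 nucleotide, 9 of 23 repair and 3 of 9 checkpoint genes, against 5.87% of all genes.

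The 20 genes of base excision, nucleotide excision and end joining repair had a median log2 difference of -0.06, and 14 of the 20 were below 0. Of them 0 had every knockout library below every wild-type library (5.87% of all genes) and 2 had every knockout library above (5.08% of all genes). The 9 other E2F, DP and pocket protein genes had a median of -0.10 with 5 below 0, and E2f3 and Rbl1 were furthest apart (0.27 and -0.27). The 18 mitosis genes were all below 0 with a median of -0.28, led by Ccnb2 (-0.36) and Bub1 (-0.33). For 2 of them every knockout library lay below every wild-type library (5.87% of all genes), and the pair medians of the list were -0.46, -0.29 and -0.09. The difference between any of these lists and the 49 genes was not tested.

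**Figure D5:**
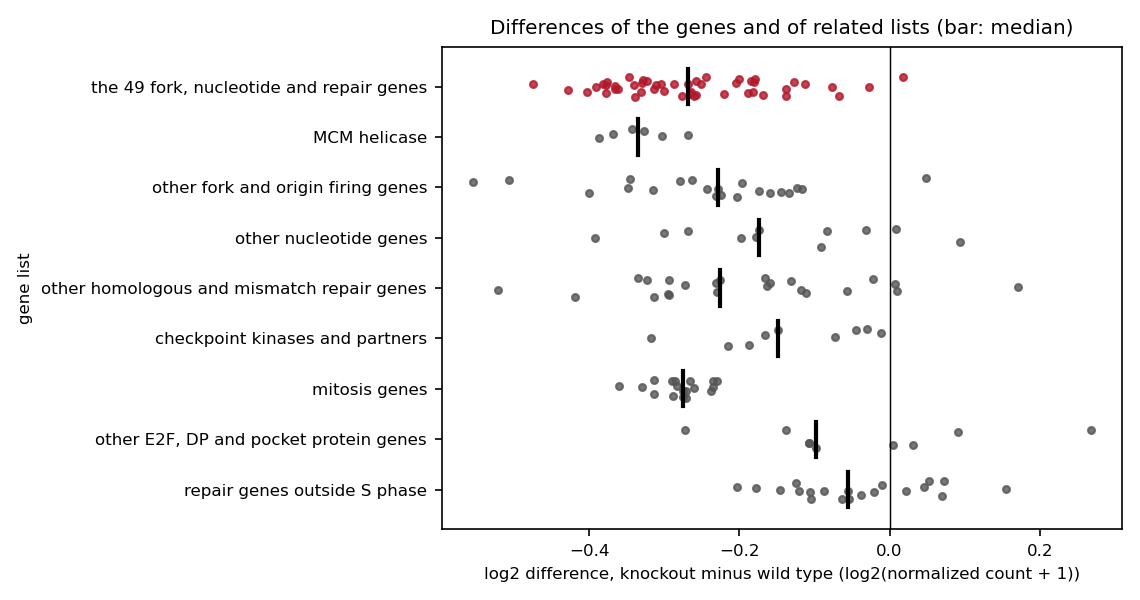
Log2 difference of single genes, knockout minus wild type (x axis), for the 49 genes (red) and for related lists (grey; y axis), with black bars at the medians. The 49 genes have a median of -0.27, and repair genes outside S phase one of -0.06.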

How the data were processed

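RNA of 6 basal cell carcinoma libraries was compared, 3 knockout and 3 wild type, grouped by the labels. Per the labels' protocols, libraries were made with a TruSeq RNA kit, which does not mark strand. Per the submitters' processing notes, STAR 2.5, DESeq2 1.18.1 and the build mm10 (GRCm38) were used. The sources used here name no counting tool, annotation or filter. The authors deposited a signal per gene and library, in which each library's reads are scaled by a single size factor. Dividing by the smallest step gave whole reads for 100% of values in each library, within 0.001 reads. No read was recorded for 5122 of 23337 genes.

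The 13671 genes averaging 10 or more normalized counts were tested with limma 3.58.1 (R 4.3.3) on log2(normalized count + 1), with a variance trend and robust moderation, two-sided, with Benjamini-Hochberg adjustment at 0.05. The pseudocount of 1 understates changes of low genes. As alternatives, edgeR 4.0.16 (TMM, quasi-likelihood) and DESeq2 1.42.0 were run on the whole reads. An exact permutation test of 3 against 3 cannot go below 0.1 and was not run. Same-numbered libraries deviated together (correlations of 0.333, 0.327 and 0.694, each above 0.1), so the replicate numbers, which come from the labels, were taken to pair them. The first 2 pairs could also be crossed: knockout library 1 and wild-type library 2 correlated by 0.505, and knockout library 2 and wild-type library 1 by 0.260. Correlations between a DM22 and a DM24 library were -0.632 to -0.383. The check therefore separates the code series but cannot tell which DM22 libraries belong together.

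Members and gene lists were chosen with earlier results of these data known. By the naming rule, values per library are given for Pcna, for the lowest and the highest member of each role, for members called by DESeq2 in any of 3 designs and for members above 0. From each other list up to 2 genes with the largest difference were to be named, some of which are not reported here, and Mcm3, Timeless, Emcn, Xist and Ddx3y were named after their values were seen. Gene coordinates (1-based), principal transcript lengths and exon overlaps are from GENCODE M21 (GRCm38), which may not be the annotation counted.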

Additional observations from a re-analysis of the deposited data

How the results depend on the processing

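The number of the 49 genes called depended on the model. Limma, edgeR and their fits with a term or another scaling called 0 of the 49. Array weights, which rested mostly on knockout library 2 and wild-type library 1, called 34 (1624 of all genes). DESeq2 called 4 (67 of all genes), 1 with the replicate block (169), 11 with the code series (303), 5 with the deposited size factors (72) and 0 with no filter (55). In the DM22 libraries alone DESeq2 called 2 (268 of all genes) and limma 0 (2). Leaving out 1 library, limma called 0 of the 49 and 0 to 1 of all genes, and DESeq2 called 0 to 11 of the 49 and 23 to 235 of all genes (233 without knockout library 3, 26 without knockout library 2, 223 without wild-type library 2). The cause was not tested. The median of the 49 stayed between -0.30 and -0.22 over all 25 alternatives. With the replicate block in limma no gene of the 49 was called, as without it. The median of the polymerases was -0.25 by DESeq2 and -0.26 by limma in the DM22 libraries, and that of flap processing and RPA -0.21 when scaled to total reads. With 1 library left out the medians ran from -0.30 to -0.16 for E2F factors (-0.16 without knockout library 1), -0.30 to -0.18 for the clamp and loader, -0.34 to -0.21 for GINS and CDC45, -0.41 to -0.31 for nucleotide supply, -0.33 to -0.29 for chromatin, -0.33 to -0.28 for repair, -0.23 to -0.18 for the polymerases and -0.27 to -0.24 for flap processing and RPA, so the order of the roles changed with the library left out. Directions turned for 4 genes. Gins3 was 0.018 when scaled to total reads and -0.077 to 0.032 with 1 library left out. Msh6 was 0.0011 with array weights and -0.23 to 0.011 with 1 library left out, and Rpa1 was -0.17 to 0.020 with 1 left out. E2f7 was -0.072 by DESeq2 and -0.087 by limma in the DM22 libraries, and -0.10 to 0.16 with 1 left out. The alternative fits of DESeq2 to the DM22 libraries, without a filter, with the deposited size factors and with 1 library left out were chosen after seeing the data. Depth set no floor here: 3 reads equal 2.47 to 3.90 normalized counts, and the lowest value of the 49 in any library was 196 (E2f7).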
